A study of Mus musculus with 2 samples.

Results

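A set of 10 genes through which the distal nephron handles salt was followed across the cell types of mouse kidney after ischaemia-reperfusion injury (IRI) and of control kidney. The members are Slc12a1, Umod, Kcnj1, Egf, Slc12a3, Wnk1, Pvalb, Trpm6, Calb1 and Slc8a1. They were named for their known function in distal salt and mineral transport, with no threshold on a measured value but with earlier results of these data known. All 10 are among the 15169 genes of the deposited expression table. The data are droplet single-cell RNA sequencing of minced and enzymatically digested kidney, with 1 library per group. The IRI library is wild-type C57BL/6 kidney at an age of 9 weeks, from unilateral ischaemia-reperfusion with removal of the opposite kidney. The control library is wild-type C57BL/6 kidney at 9 weeks that the labels call normal, with no nephrectomy named. Ischaemia and loss of the other kidney therefore cannot be told apart, and the time after injury, the sex and the number of mice behind a library are not given in the sources used here. The tables hold 5170 IRI cells and 6589 control cells, with medians of 1888.5 and 2344 raw UMIs (unique molecular identifiers, each marking 1 captured transcript).

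The distal nephron reclaims salt in a series of segments, each with a transporter of its own. In the thick ascending limb, the cotransporter encoded by Slc12a1 takes up sodium, potassium and chloride, and the channel encoded by Kcnj1 returns potassium to the lumen so that transport can go on; the same cells secrete uromodulin, the product of Umod, and with the next segment they make the precursor of epidermal growth factor, the product of Egf. The distal convoluted tubule reabsorbs sodium chloride through the thiazide-sensitive cotransporter encoded by Slc12a3, under the control of kinases of the WNK family, to which Wnk1 belongs, and it reabsorbs magnesium through the channel encoded by Trpm6. Its early part contains parvalbumin, a calcium-binding protein encoded by Pvalb, while calbindin (Calb1) and the sodium-calcium exchanger (Slc8a1) serve calcium transport in the late distal convoluted and connecting tubule.

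Every value below is a mean depth-corrected count per cell, the deposited count scaled to a common sequencing depth, unless it is called a share. Corrected totals still differ among cells, from 1468 to 3212. With 1 library in each group, the spread between animals was not measured and no comparison carries a p-value. Intervals are exact 95% intervals that cover counting error only. Log2 ratios are IRI over control after 0.05 was added to each mean, a member was measured in a cell type when it had at least 10 summed corrected counts there, and a ratio of at least 2-fold in either direction was the limit for a count. Levels of different genes are not compared, since they are not scaled per length.

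The promoters of members whose values carry the results are shown first, because members that were found in the same cells, or whose levels parted in the IRI library, could be compared in their start regions. RefSeq promoter sequences (build GRCm38.p6, 250 bases before to 50 after the start) were at hand for 9 of the 10 members, with 11 starts in all; Calb1 was not among them. Umod and Egf are shown because their levels parted in the IRI kidney, and Slc12a3 and Pvalb because both were found in cluster 24 cells and in part of the cells named thick ascending limb. The regions are chr7:119479213-119479512 on the minus strand, chr3:129755273-129755572 on the minus strand, chr8:94328958-94329257 on the plus strand and chr15:78206351-78206650 on the minus strand. Capitals mark matches to the motifs described after the sequences.
Umod: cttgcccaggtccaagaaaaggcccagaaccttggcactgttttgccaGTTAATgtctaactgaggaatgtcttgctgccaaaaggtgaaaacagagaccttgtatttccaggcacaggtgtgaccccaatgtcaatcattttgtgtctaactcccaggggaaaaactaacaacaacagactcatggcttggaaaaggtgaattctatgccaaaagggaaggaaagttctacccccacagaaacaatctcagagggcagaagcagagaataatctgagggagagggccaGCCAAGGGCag
Egf: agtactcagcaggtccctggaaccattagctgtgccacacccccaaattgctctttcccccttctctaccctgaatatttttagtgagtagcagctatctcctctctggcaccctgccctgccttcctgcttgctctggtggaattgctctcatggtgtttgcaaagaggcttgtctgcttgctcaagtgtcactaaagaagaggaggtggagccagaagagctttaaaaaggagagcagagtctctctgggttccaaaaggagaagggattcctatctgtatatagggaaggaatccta
Slc12a3: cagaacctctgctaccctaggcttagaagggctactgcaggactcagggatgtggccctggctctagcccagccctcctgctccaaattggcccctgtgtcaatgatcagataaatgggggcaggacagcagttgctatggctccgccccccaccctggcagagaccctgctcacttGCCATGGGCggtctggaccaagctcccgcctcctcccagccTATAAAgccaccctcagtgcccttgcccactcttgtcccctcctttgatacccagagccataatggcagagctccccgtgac
Pvalb: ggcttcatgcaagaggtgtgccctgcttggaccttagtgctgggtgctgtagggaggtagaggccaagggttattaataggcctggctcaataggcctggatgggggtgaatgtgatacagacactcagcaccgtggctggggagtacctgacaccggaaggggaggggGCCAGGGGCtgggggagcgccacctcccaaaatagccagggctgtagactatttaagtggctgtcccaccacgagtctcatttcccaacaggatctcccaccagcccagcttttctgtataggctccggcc

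The 5 motifs searched on both strands are those of factors known from tubule epithelium or of the general start site: GTTAAT, a core element of HNF1 factors; AAGGTCA, of the oestrogen-related receptors; ACATGT, of the Iroquois factors; GCCNNNGGC, of AP-2 factors; and TATAAA, the TATA box. GCCNNNGGC was found in promoters of 5 members (Slc12a3, Pvalb, Trpm6, Wnk1 and Umod) and is held by 16.6% of the 32851 promoters in the table. Sequences and positions are given for the start furthest upstream of each member. Which start gave the RNA counted here was not tested. GCCNNNGGC begins 73 bases before this start of Slc12a3, 81 before that of Pvalb, 68 before that of Trpm6 and 65 before that of Wnk1. In Umod it lies after the start. In Slc12a3, TATAAA begins 32 bases before the start, and 13.6% of all promoters hold it. GTTAAT was found in Umod, 202 bases before the start, and is held by 7.10% of all promoters. AAGGTCA and ACATGT, held by 4.72% and 5.28% of all promoters, were in none of the members' windows, and the shown start region of Egf held none of the 5 motifs. A match of letters is a description and shows no binding.

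The distal cells behind the members were few, and TAL and DCT/CNT cells were a smaller share of the IRI library. Cells annotated as thick ascending limb (TAL) numbered 112 of 5170 in the IRI library, 2.17% (95% interval 1.79 to 2.60), and 324 of 6589 in the control library, 4.92% (4.41 to 5.47), a ratio of shares of 0.441 (0.352 to 0.548). Distal convoluted and connecting tubule cells (DCT/CNT) numbered 63 in the IRI library, 1.22% (0.938 to 1.56), and 236 in the control library, 3.58% (3.15 to 4.06), a ratio of 0.340 (0.253 to 0.451). Intercalated cells of the collecting duct (CD-IC) numbered 55, or 1.06%, in the IRI library and 57, or 0.865%, in the control library, a ratio of 1.23 (0.833 to 1.81). Over all cells of a library, Egf had 0.0662 in the IRI library and 0.416 in the control library, and Calb1 had 0.0702 and 0.487. With the constant added to each mean, these 2 of the 9 members measured were at least 2-fold lower, where 0.882% of 13945 genes were. In the other direction, 0 were at least 2-fold higher, where 0.76% were. Slc12a1 (0.0774 and 0.173) and Trpm6 (0.00193 and 0.00622, from 10 and 41 summed counts) had plain ratios of 0.448 and 0.311. These ratios were also more than 2-fold lower, and the added constant kept both members under the limit. In such a whole-library value, fewer cells of a type and less RNA per cell cannot be told apart, so the members are described within types from here on. Both libraries held 55 identical cell barcodes, and doublets were not called.

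The deposited names were set against marker genes. Some of these are members, so the names were not checked independently of the members. The TAL cells were led by Wfdc15b, Egf, Umod and Slc12a1, and all 8 TAL markers were detected in both libraries. The DCT/CNT name covers a pair of clusters. Cluster 24, with 32 IRI and 64 control cells, is distal convoluted tubule-like and was led by Slc12a3, Wnk1, Tmem52b and Pvalb. Cluster 15, with 31 IRI and 172 control cells, is connecting tubule-like and was led by S100g, Calb1 and Klk1. Cluster 24 made up 50.8% (37.9 to 63.6) of the IRI DCT/CNT cells and 27.1% (21.6 to 33.3) of the control ones, so that a mean over all DCT/CNT cells mixes these clusters in different proportions in each library; both are given below. Cells named thin descending limb (tDL) fell into cluster 9, with 420 IRI and 36 control cells, and cluster 11, with 20 and 391, and neither had a thin limb marker among its 10 leading genes; they are called by their cluster numbers.

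**Figure D1:**
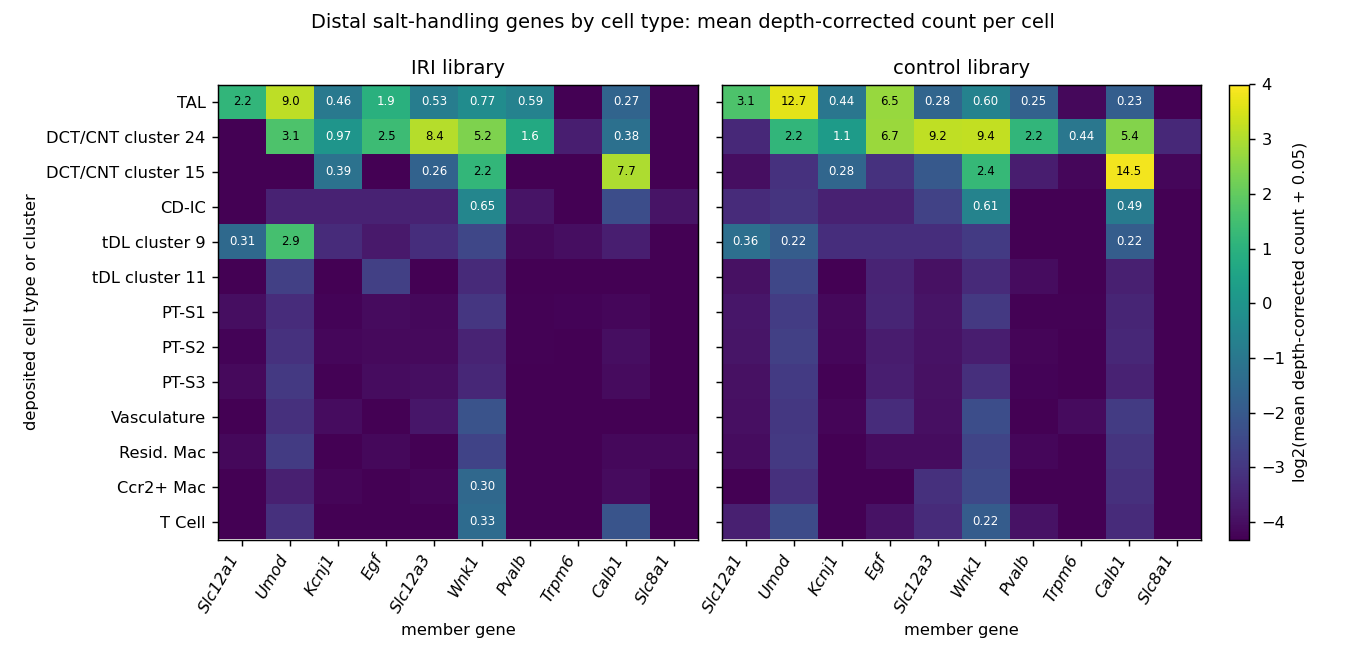
Mean depth-corrected count per cell of the 10 members (columns) in 13 deposited types or clusters (rows), in the IRI library (left) and the control library (right); colour is log2 of the mean plus 0.05, and means of at least 0.2 are printed. Slc12a1 and Umod peak in TAL, Slc12a3 and Pvalb in cluster 24 and Calb1 in cluster 15 in both libraries, and the IRI library has a second row of Umod, 2.89, in cluster 9.

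Slc12a1, Umod, Slc12a3 and Calb1 were highest in the types named for their segments in both libraries. The types were annotated from these same cells, so this is a description and no test. Slc12a1 was highest in TAL cells, at 2.16 in the IRI library and 3.13 in the control library, and TAL cells held 60.5% and 89.1% of all its corrected counts. Umod was likewise highest in TAL cells, at 8.96 and 12.7, but these held 38.0% of its counts in the IRI library and 84.9% in the control library. Slc12a3 was highest in DCT/CNT cells, which held 70.3% of its counts in the IRI library and 75.5% in the control library. Calb1 was also highest there, with 69.4% and 88.4%. Kcnj1, which both segments use, was shared between DCT/CNT cells (0.683 IRI, 0.513 control) and TAL cells (0.464 IRI, 0.435 control).

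Wnk1 was the member least bound to a segment. Its level was 3.76 in IRI and 4.27 in control DCT/CNT cells, and DCT/CNT held 29.3% of its counts in the IRI library and 62.0% in the control library. CD-IC cells had 0.655 and 0.614, and Cx3cr1+ macrophages had 0.684 in 19 IRI cells and 0.698 in 106 control cells, close to the TAL level of 0.768 and 0.602. T cells had Wnk1 above 0 in 29.9% of 97 IRI cells and 20.3% of 59 control cells.

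Slc8a1 and Trpm6 were scarce. Slc8a1 had 3 summed corrected counts in the IRI library and 5 in the control library, of which DCT/CNT cells held 0 and 4, so its level could not be compared at this depth. Trpm6 had 10 and 41 summed counts, of which DCT/CNT cells held 1 and 29. The other IRI counts were 5 in tDL, 3 in PT-S1 (the first proximal tubule segment) and 1 in the type named myofibroblast. In the control library, myofibroblasts held 5, and TAL and vasculature 2 each.

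Free RNA in the suspension can give a count to a cell that does not express the gene, so the members were also read in immune cells. Over 814 IRI and 414 control immune cells, with medians of 2008.5 and 1893.5 raw UMIs, Umod had 0.0663 and 0.0942, Calb1 had 0.0319 and 0.0604, Egf had 0.00369 and 0.0193, and Slc12a1 had 0.00246 and 0.0145. In the IRI immune cells, 1 T cell held 16 of the 26 summed Calb1 counts, so that mean rests mostly on 1 cell. Umod was above 0 in 5.28% of the IRI and 7.25% of the control immune cells, and Calb1 in 1.23% and 4.59%. Slc12a3 was in 0.123% and 2.90% of them. The depth correction lists some cells with a UMI at 0, so these shares understate the background. By UMIs read from the deposited residual scores, Slc12a3 was in 8 of 814 IRI immune cells (0.983%) and Calb1 in 19 (2.33%). In 106 control Cx3cr1+ macrophages, Slc12a3 was above 0 in 5 (4.72%) and had a UMI in 9 (8.49%). Trpm6 was in 0 of 814 and 0 of 414, where 3 counts of the total would be shares of 0.369% and 0.725% of cells with a count, which limits detection and not expression. In proximal tubule cells of segment S2, the largest type, Umod had 0.0648 and 0.0991 and Egf 0.00810 and 0.0276, close to the immune cells. Levels of this size are read as background.

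Within TAL cells, the transport genes were close in both libraries and Egf was much lower in the IRI library. Egf had 1.91 in IRI TAL cells and 6.52 in control TAL cells, a log2 ratio of -1.74. It was above 0 in 42.9% of IRI and 56.8% of control TAL cells, and the highest cell had 22 in the IRI library and 70 in the control library. Slc12a1 had 2.16 and 3.13 (log2 ratio -0.52) and Umod 8.96 and 12.7 (-0.50), both lower in IRI TAL cells by less than 2-fold. Kcnj1 had 0.464 and 0.435 (0.08) and Wnk1 0.768 and 0.602 (0.33). Calb1 had 0.268 and 0.231 (0.18). Of the 8 members measured in TAL cells, 1 was at least 2-fold lower, where 2.29% of the 6493 genes measured there were, and 1, Pvalb, was at least 2-fold higher, where 1.05% of these genes were. The median log2 ratio of the 8 members was 0.13, and that of all genes measured -0.10.

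Pvalb and Slc12a3, genes of the next segment, had the highest ratios among the members in cells of the TAL name. Pvalb had 0.589 in IRI and 0.250 in control cells (log2 ratio 1.09), and was at least 2-fold higher in 5 of 8 alternatives, with 0.22 on the scale of log means. Slc12a3 had 0.527 and 0.281 (0.80), under the 2-fold limit. Each was above 0 in 20.5% of IRI TAL cells (23 of 112) and 7.72% of control TAL cells (25 of 324), a ratio of shares of 2.66 (1.44 to 4.89). Cells with Slc12a1 were nearly free of them: of the TAL cells with Slc12a1 above 0, 1 of 39 in the IRI library and 4 of 157 in the control library also had Slc12a3. Slc12a3 without Slc12a1 was found in 22 IRI and 21 control TAL cells. Slc12a3 or Pvalb without Slc12a1 was found in 33 IRI cells, 29.5% of TAL, and 31 control cells, 9.57%.

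**Figure D2:**
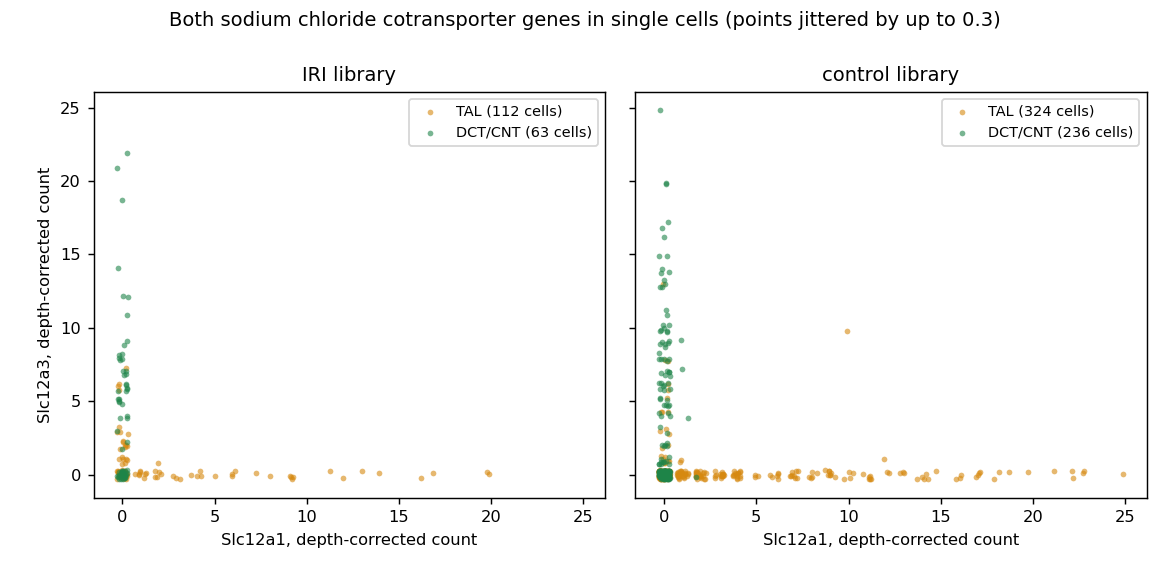
Depth-corrected count of Slc12a1 (x axis) against Slc12a3 (y axis) in each TAL cell (orange) and DCT/CNT cell (green), in the IRI library (left) and the control library (right), with points jittered. The cells lie along the axes: 1 of 112 IRI and 4 of 324 control TAL cells had both genes.

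The cells in question, chosen after their values were seen, had a mixed content. The 33 IRI and 31 control TAL cells with Slc12a3 or Pvalb and no Slc12a1 had a median of 1745 and 1501 raw UMIs. They had Slc12a3 at 1.76 and 2.52, Pvalb at 2 and 2.58, Calb1 at 0.848 and 1.74, and Umod at 2.61 and 3.97. Egf had 0.909 in the IRI cells and 3.19 in the control cells, lower in the IRI cells as in the whole type. Without TAL cells that had Slc12a3 or Pvalb, 78 IRI and 289 control cells were left, with Slc12a1 at 3.08 and 3.43 and Egf at 2.36 and 6.80.

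The difference in Egf stood out when cells were matched by Slc12a1, a comparison added after the values were seen. The 39 IRI and 157 control TAL cells with Slc12a1 above 0 had Slc12a1 at 6.21 and 6.46, Umod at 21.5 and 23.5, and Kcnj1 at 0.769 and 0.675. Egf had 4.51 in these IRI cells and 12.2 in these control cells. It was detected in 32 of 39 and 130 of 157 of them, so the share of cells with Egf was alike and the amount per cell was not. The IRI cells had the higher depth, with a median of 4987 raw UMIs against 2978 in the control cells. Among those with at least 2000 raw UMIs, 30 IRI and 101 control cells, Egf had 5.33 and 15, Umod 24.4 and 29.6 and Slc12a1 7.20 and 7.89.

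RNA of injury genes was counted in the same cells. In the TAL cells with Slc12a1, Spp1, which encodes osteopontin, had 13.5 in the IRI cells and 2.01 in the control cells. Lcn2, which encodes the injury protein lipocalin 2, had 0.513 and 0.0127. No level of these genes in immune cells is given here, so free RNA was not set apart. Spp1 was also counted in cells with Slc12a1 outside the TAL, DCT/CNT, CD-IC and tDL names. It had 6.08 in 24 such IRI cells and 0.177 in 79 such control cells. Over all TAL cells, 8 of 16 measured tubule injury genes were at least 2-fold higher in the IRI library, where 1.05% of all genes were. In the other direction, 0 were lower, where 2.29% were, and the list's median log2 ratio was 0.80. Spp1 (7.18 and 1.30), S100a6 (0.313 and 0.0123) and Clu (0.446 and 0.0648) were among the 8 higher. Kap, a gene of the proximal tubule, had 1.05 in the IRI and 7.01 in the control TAL cells with Slc12a1. The 13 proximal tubule markers summed to 4.02 and 12.5 over all TAL cells. All 13 were above 0 in the control TAL cells and 11 in the IRI ones, where Slc5a12 and Slc7a13 were at 0. The part of the injury genes and of the proximal tubule RNA in the level of Egf was not tested.

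Other genes of TAL salt transport did not pass the limit. Of 20 genes on a list for sodium chloride and potassium transport of the thick ascending limb, 17 were measured in TAL cells. Of these, 0 were at least 2-fold higher and 0 lower, with a median log2 ratio of -0.07. Among all genes measured in TAL cells, 1.05% were higher and 2.29% lower, so counts of 0 are near these shares. Cldn10, which forms the paracellular sodium path, had 0.563 in IRI and 0.883 in control TAL cells. Fxyd2, a regulatory subunit of the sodium pump, had 41.3 and 31.8. Casr, the calcium-sensing receptor, was listed at 0 in IRI TAL cells and had 14 summed counts in control TAL cells. Of 14 measured regulators on a list of WNK, SPAK and aldosterone genes, 1 was at least 2-fold lower, where 2.29% of all genes were. This was Ppp1r1b, an inhibitor of protein phosphatase 1, with 0.313 and 0.716.

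**Figure D3:**
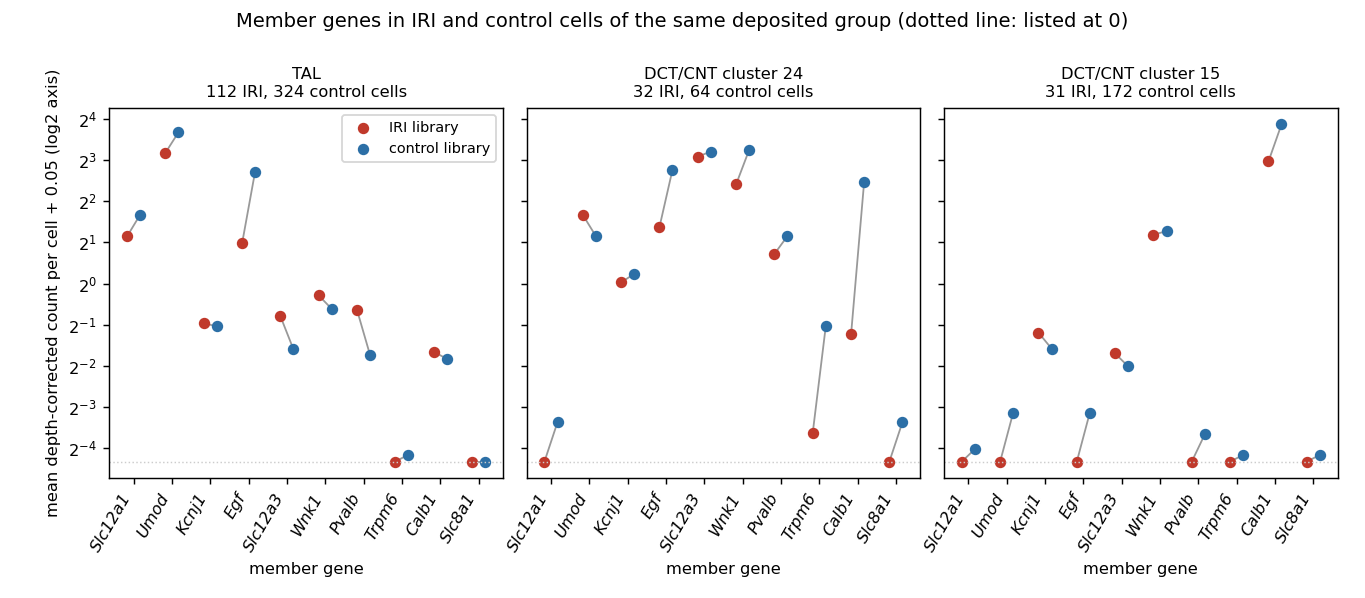
Mean depth-corrected count per cell plus 0.05 (log2 axis) of each member in the IRI library (red, left point) and the control library (blue, right point), in TAL cells, cluster 24 and cluster 15 of DCT/CNT. Egf is lower in IRI cells in TAL (1.91 and 6.52) and cluster 24 (2.53 and 6.72), Calb1 in clusters 24 (0.375 and 5.44) and 15 (7.74 and 14.5), and Slc12a3 lies at 8.41 and 9.16 in cluster 24.

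Cells with the pair Slc12a1 and Umod were also found outside the TAL name, in cluster 9 of the IRI library. There, 50 of 420 cells had Slc12a1 above 0, more than the 39 in IRI TAL cells, and in the control library 1 of the 36 cells of cluster 9 had it. The mean of Slc12a1 over cluster 9 was 0.307 in the IRI cells and 0.361 in the control cells, where that 1 cell held all 13 counts. In the 50 cells, Slc12a1 had 2.58, Umod 17.1 and Kcnj1 0.220. Egf had 0.08 and was above 0 in 4 of the 50 cells, against 32 of 39 IRI TAL cells with Slc12a1. Spp1 had 102 in these cluster 9 cells and 13.5 in the IRI TAL cells. Umod over all of cluster 9 had 2.89 in the IRI cells and 0.222 in the control cells, and the tDL name as a whole held 1216 of the 2639 corrected Umod counts of the IRI library, against 1004 in TAL. Of the 7 members measured over the tDL name, 2 (Umod and Slc12a1) were at least 2-fold higher in the IRI library, where 4.96% of 8221 genes were. In the other direction 0 were lower, where 6.39% were. Kcnj1 (10.7), Slc12a3 (2.91) and Wnk1 (2.25) had plain ratios above 2, and the added 0.05 kept them under the limit. Cluster 9 made up 95.5% of the IRI and 8.43% of the control tDL cells, so different clusters are compared here. The 13 proximal tubule markers summed to 8.73 in IRI cluster 9 cells and 86.8 in control cluster 11 cells. For Slc12a1 the log2 ratio was 1.86 over the tDL name and -0.20 within cluster 9. Within cluster 9, 1 (Umod) was higher, where 10.4% of 6339 genes were, and 1 (Calb1, 0.0310 and 0.222) was lower, where 7.81% were; the 36 control cells of cluster 9 also held 5.33 of Aqp2, the water channel of principal cells, against 0.164 in the IRI cells.

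Counted without regard to the deposited name, cells with the pair were closer in number than cells of the TAL name, to a degree that depends on the rule. Cells with Slc12a1 above 0 and at least 5 Umod, a rule chosen after the values were seen, numbered 76 in the IRI library, 1.47% (1.16 to 1.84), and 121 in the control library, 1.84% (1.53 to 2.19). The ratio of these shares was 0.80 (0.593 to 1.08), where that of the TAL name was 0.441. By Slc12a1 above 0 alone, 113 IRI cells (2.19%, 1.80 to 2.62) and 250 control cells (3.79%, 3.35 to 4.28) were counted, further apart. Of these, 24 and 79 lay outside the TAL, DCT/CNT, CD-IC and tDL names, with Slc12a1 at 1.21 and 1.23. Of the 76 IRI cells, 34 were named TAL and 41 were in cluster 9; of the 121 control cells, 118 were named TAL and 1 was in cluster 9. The IRI cells had a median of 4255 raw UMIs and the control cells 3477. Over these cells Egf had 2.33 in the IRI library, detected in 34 of 76, and 15.3 in the control library, detected in 116 of 121. Kcnj1 had 0.434 and 0.802 and Umod 22.3 and 30.03.

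**Figure D4:**
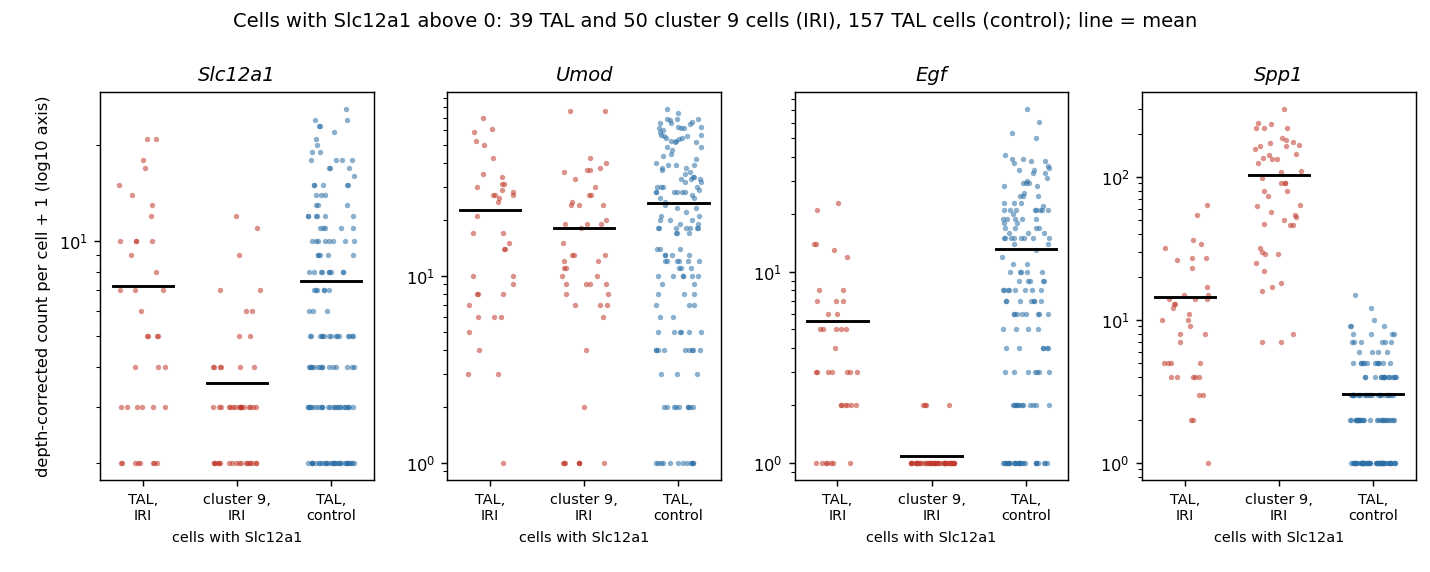
Depth-corrected count per cell plus 1 (log10 axis) of Slc12a1, Umod, Egf and Spp1 in the cells with Slc12a1 above 0: 39 TAL cells and 50 cluster 9 cells of the IRI library (red) and 157 TAL cells of the control library (blue), with each mean as a black line. Umod means lie at 21.5, 17.1 and 23.5, while Egf means lie at 4.51, 0.08 and 12.2 and Spp1 means at 13.5, 102 and 2.01.

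In the distal convoluted tubule-like cells of cluster 24, the cotransporter was close in both libraries while Egf, Calb1 and Trpm6 were lower in the IRI library. Slc12a3 had 8.41 in the 32 IRI cells and 9.16 in the 64 control cells, a log2 ratio of -0.12, and was above 0 in all of them. Its median cell had 7 and 8, and its highest 22 and 25. Cluster 24 was drawn from these same cells, with Slc12a3 as its leading gene. Cells with little Slc12a3 could lie outside it, so a close level and presence in all cells may be partly set by membership. Pvalb had 1.59 and 2.17 (log2 ratio -0.43) and Kcnj1 0.969 and 1.13 (-0.21). Wnk1 had 5.25 and 9.41 (-0.84), with the median cell at 5 and 9, lower in the IRI cells by less than 2-fold. Umod, which these cells also held, had 3.13 and 2.17 (0.51). The median UMI count of these cells was 6895 in the IRI library and 4506 in the control library. Their corrected totals had medians of 2166.5 and 2708.5, so the scaling left a higher total in the control cells.

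Egf had 2.53 in IRI and 6.72 in control cells of cluster 24, a log2 ratio of -1.39, close to the difference in TAL cells. It was detected in 25 of 32 IRI cells (78.1%) and 58 of 64 control cells (90.6%). Calb1 had 0.375 and 5.44 (-3.69). Its corrected count was above 0 in 8 of 32 (25.0%) and 45 of 64 (70.3%), a ratio of shares of 0.356 (0.145 to 0.762). A Calb1 UMI, read from the deposited residual scores, was in 13 IRI cells (40.6%, 23.7 to 59.4) and 45 control cells (70.3%, 57.6 to 81.1). The depth correction thus listed some IRI cells with a Calb1 UMI at 0, which widens the difference in corrected shares. Trpm6 had a corrected count above 0 in 1 of 32 IRI cells (3.13%) and 24 of 64 control cells (37.5%), a ratio of 0.0833 (0.00203 to 0.511). Trpm6 has no residual scores, so the same effect of the depth correction could not be checked for it. Its log2 ratio with the pseudocount passed the 2-fold limit in 6 of 8 alternatives and not with a pseudocount of 0.5 (-0.82) or log means (-0.38). Of the 8 members measured in cluster 24, these 3 were at least 2-fold lower and 0 higher. Among all 3796 genes measured there, 22% were at least 2-fold lower and 1.08% higher, with a median log2 ratio of -0.41, so the count of 3 is read against a cluster in which lower values were common.

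**Figure D5:**
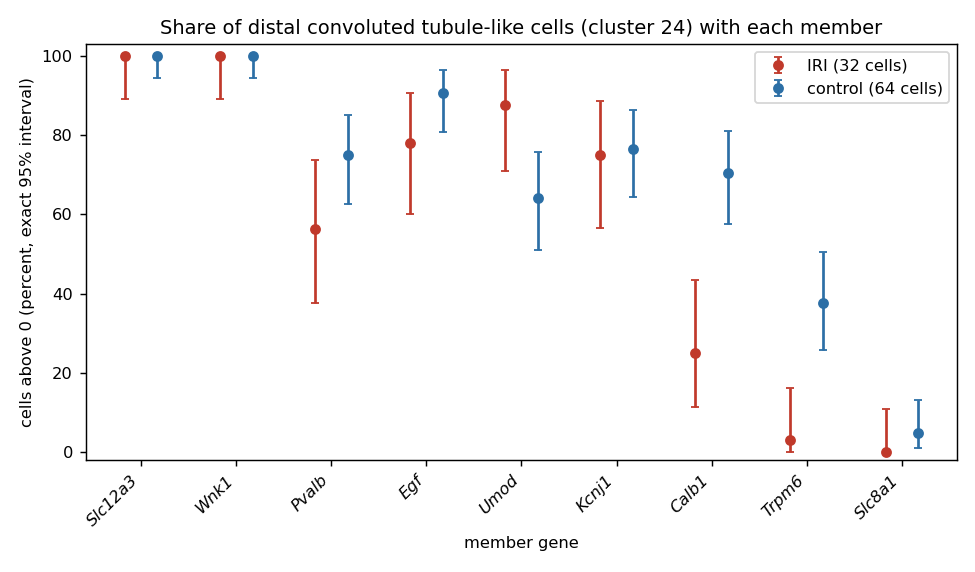
Percent of cluster 24 cells with a corrected count above 0 for 9 members (Slc12a1 is left out), in the IRI library (red, 32 cells) and the control library (blue, 64 cells), with exact 95% intervals for counting error. Slc12a3 and Wnk1, leading genes of this cluster, were in all cells of both libraries, while Calb1 was in 25.0% and 70.3% and Trpm6 in 3.13% and 37.5%. A Calb1 UMI was in 40.6% of the IRI cells.

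Calb1 also separates the late from the early distal convoluted tubule, so cluster 24 was split by it, again after the values were seen. Without Calb1 there were 24 IRI and 19 control cells. In these, Slc12a3 had 7.63 and 8.42, Pvalb 1.88 and 2.42, and Kcnj1 1.13 and 0.947. Egf had 3.04 in the IRI cells and 7.84 in the control cells, Wnk1 had 5.50 and 8.47, and Trpm6 was in 1 of 24 IRI and 6 of 19 control cells. Since Calb1 itself differed between the libraries, cells without it need not be the same cells in both, and early and late cells cannot be told apart by this split.

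The other genes of calcium and magnesium handling were read in cluster 24 as well. On a list of 27 genes for salt, magnesium and calcium transport of this segment and the next, 21 were measured in cluster 24; 7 were at least 2-fold lower in the IRI library, the members Calb1, Trpm6 and Egf among them, and 1 higher. The list's median log2 ratio was -0.21, where that of all genes was -0.41, and 22% of all genes were at least 2-fold lower. S100g, the other calbindin, had 1.22 and 29.0, and Kl, whose product klotho is a coreceptor for fibroblast growth factor 23, had 0.0938 and 1.39. Cnnm2, of basolateral magnesium transport, had 1 and 13 summed counts, and Atp2b1, a calcium pump of the plasma membrane, had 2 and 17. The sodium chloride partners lay closer: Kcnj10, the basolateral potassium channel, had 0.438 and 0.516, and Scnn1a, a subunit of the epithelial sodium channel, had 0.5 and 0.5. The 8 connecting tubule markers summed to 4.72 in the IRI cells, with Slc8a1, Trpv5 and Scnn1g at 0, and to 38.8 in the control cells, with Trpv5 at 0. The 13 proximal tubule markers summed to 1.16 and 6.13, and Spp1 had 6.38 and 1.27. The part of these in the levels of the members was not tested.

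The regulators around Wnk1 differed among themselves in cluster 24. Wnk4, the kinase that acts on the cotransporter beside Wnk1, had 1.5 in IRI and 1.66 in control cells, and Stk39, which encodes the kinase SPAK that phosphorylates it, had 0.469 and 0.359. Klhl3, the adaptor that marks WNK kinases for breakdown, had 0.125 and 0.578, with 4 and 37 summed counts. Of the 8 measured genes on the list of WNK, SPAK and aldosterone regulators, 2 were at least 2-fold lower and 0 higher, where 22% and 1.08% of all genes were. Their median log2 ratio was -0.42, near the -0.41 of all genes. Emx1, a transcription factor of this segment, had 1.06 and 2.19.

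In the connecting tubule-like cells of cluster 15, Calb1 was lower and the other members measured were close or scarce. Calb1 had 7.74 in the 31 IRI cells and 14.5 in the 172 control cells, a log2 ratio of -0.90, and was above 0 in 77.4% and 87.2% of them. S100g had 83.2 and 220, lower in the IRI cells as well. Wnk1 had 2.23 and 2.36 (-0.08), Kcnj1 0.387 and 0.285 (0.38) and Slc12a3 0.258 and 0.198 (0.31). Umod and Egf were each listed at 0 in the IRI cells and had 11 summed counts in the control cells, 0.0640 per cell. Umod had 0.0942 in control immune cells, and the ratios of the shares of cells with Umod and Egf have upper limits of 3.25 and 2.81, so no difference was detectable for them. Of the 6 members measured in cluster 15, 0 were at least 2-fold higher, where 8.08% of the 3390 genes measured were, and 2 passed the limit as lower, where 8.58% were; these 2 are Umod and Egf, and nothing is read from that count. The cells differed in depth, with a median of 3579 raw UMIs in the IRI and 1261.5 in the control library.

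A mean over all DCT/CNT cells, among which cluster 24 had a larger share in the IRI library, differed in direction or size from the values within the clusters. Slc12a3 had 4.397 in IRI and 2.63 in control DCT/CNT cells (log2 ratio 0.73), though within cluster 24 the values were 8.41 and 9.16. Umod had 1.59 and 0.636 (1.26), and within cluster 24 it had 3.13 and 2.17. Egf had 1.29 and 1.87 (-0.52), a smaller difference than within cluster 24. Calb1 had 4.00 and 12.0 (-1.58) and was lower in the IRI cells of both clusters. Of the 8 members measured over DCT/CNT, 1 was at least 2-fold higher, where 2.22% of 5989 genes were, and 2, Calb1 and Trpm6, were lower, where 4.78% were.

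CD-IC cells, which were led by Atp6v1g3, Atp6v0d2 and Foxi1, genes of acid-base transport and of its transcriptional control, held 2 members above the minimum. Wnk1 had 0.655 in 55 IRI and 0.614 in 57 control cells. Calb1 had 0.145 and 0.491 (log2 ratio -1.47), from 8 and 28 summed counts in 3 and 6 cells. Of these 2 members 1 was at least 2-fold lower, where 7.07% of 2448 genes were, and 0 were higher, where 5.88% were.

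The genes whose levels were most like those of each member were looked up across 31 type-by-library groups. Pearson's r of log2 levels was highest for Slc12a1 with Defb42 (0.95) and Cldn19 (0.95), a claudin of the thick ascending limb. It was highest for Slc12a3 with Kcnj10 (0.97), for Egf with Ppp1r1a (0.97), for Pvalb with Cwh43 (0.98) and for Kcnj1 with Tfap2b (0.97), which encodes AP-2 beta, and with Pvalb (0.97). Umod was followed by Cldn19 (0.92), Calb1 by Tspan1 (0.92), Wnk1 by Calb1 (0.87) and Trpm6 by Figf (0.96). Trpm6 was at 0 in most groups. Its r rests mainly on control myofibroblasts (0.161, from 5 summed counts) and control DCT/CNT cells (0.123). Between members, Slc12a1 and Slc12a3 had an r of 0.34 and Slc12a1 and Umod 0.88. The groups share libraries, depth and background RNA and the types were drawn from the same cells, so these values are descriptions with no test.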

How the data were processed

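Droplet single-cell RNA sequencing of mouse kidney was deposited as 1 IRI and 1 control library. Cell Ranger 3.0.0, Seurat 3.2 and the genome build mm9 are named in the submitters' processing notes, with no role given. The deposited count table holds a score, not raw counts: per the file headers and the values, the authors' depth-corrected counts (SCTransform), with 1468 to 3212 per cell where raw UMIs ran from 271 to 24680. The natural log table deposited by the authors is the natural log (ln) of these counts plus 1. Another deposited table holds residual scores for 3000 genes. Cells with at least 1 UMI were called from these scores for 6 members, where an interval of at least 0.5 held no score.

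Cell types and clusters are the authors' annotation. The metadata have no separators between numbers: the corrected totals matched for all 11759 cells, but raw UMIs and genes could be split in more than 1 way for 3615, where the first split with at least 200 genes was kept. With no raw counts and 1 library per group, no count model was run; means per type, log2 ratios with 0.05 added, and shares with exact Clopper-Pearson 95% intervals were computed. A ratio of shares has an exact interval conditional on the sum. Both cover counting error only. The calculations were tested on simulated data and run in Python 3.11.15 with NumPy 2.4.6, SciPy 1.17.1 and Matplotlib 3.10.9.

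The members and gene lists were chosen with earlier results of these data known. Named genes are the 10 members, for each member the 3 genes most alike across groups of at least 20 cells, and list genes at least 2-fold different in TAL or DCT/CNT with at least 30 summed counts; other list genes, and all subsets of cells picked by a gene, were chosen after their values were seen. Alternatives were other pseudocounts, filters on counts and on raw UMIs, other scaling, subtraction of free RNA, log means and a 1.5-fold limit.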

Additional observations from a re-analysis of the deposited data

How the results depend on the processing

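No paired analysis was possible because each group is 1 library. Leaving out a replicate was likewise not possible. Of 102 alternatives for counts of members or list genes and for shares, 73 stayed within their limits, 29 moved and 0 reversed; for single genes, 356 of 446 stayed, 88 moved and 2 reversed. The cause was not tested unless stated.

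Egf was lower in IRI cells of TAL and of cluster 24 under each of 8 alternatives: its log2 ratio ran from -1.84 to -0.81 in TAL, where 7 of 8 were at least 2-fold, and from -1.44 to -1.05 in cluster 24, where 8 of 8 were. Its direction did not hold over all DCT/CNT cells (-0.96 to 0.02) or in tDL (-0.42 to 0.26). Calb1 in cluster 24 ran from -3.82 to -1.35. Pvalb in TAL ran from 0.22 to 1.20 and was at least 2-fold in 5 of 8, and Trpm6 in DCT/CNT ran from -2.36 to -0.10.

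The count of members at least 2-fold higher in TAL, 1, became 0 with a pseudocount of 0.5, with at least 1000 raw UMIs, with means of log values and without cells that had Slc12a3 or Pvalb. The count lower in TAL, 1, became 0 with log means. In DCT/CNT, the count higher, 1, became 0 with a pseudocount of 0.5, with at least 2000 raw UMIs, with log means and in either cluster alone; the count lower, 2, became 1 with a pseudocount of 0.5 and with log means. The count lower in CD-IC, 1, became 0 with these same settings. In tDL, the count higher, 2, became 5 and 1 with pseudocounts of 0.01 and 0.5, 4 with at least 2000 raw UMIs, 0 with log means and 1 in cluster 9 alone, where the count lower, 0, became 1.

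With at least 2000 raw UMIs the ratio of shares was 0.563 for TAL, against 0.441 over all cells, and 0.529 for DCT/CNT, against 0.340. At a 1.5-fold limit, list genes numbered 14 lower in TAL (3 at 2-fold), 41 higher in DCT/CNT (16 at 2-fold), and 11 higher and 19 lower in CD-IC (5 and 11 at 2-fold). With no filter on counts, CD-IC had 8 higher and 23 lower, and with at least 30 summed counts it had 1 higher. The log2 ratio of Umod in DCT/CNT, 1.26, was -1.19 in cluster 15 alone, but Umod was listed at 0 in the IRI cells there, so that value is set by the pseudocount and shows no direction. The log2 ratio of Slc12a1 in tDL, 1.86, was -0.20 in cluster 9 alone.

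Slc8a1, with 3 and 5 summed counts, could not be compared, Trpm6 rests on 10 and 41, and the values in DCT/CNT rest on 63 IRI cells.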

Other observations

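Injury genes were also higher in the distal convoluted and connecting tubule cells of the IRI library, in different numbers in the clusters. In cluster 15, 8 of 13 measured injury genes were at least 2-fold higher, where 8.08% of all genes were, with a median log2 ratio of 1.11. In cluster 24, 3 of 10 were, where 1.08% of all genes were, with a median of 0.22. Over all DCT/CNT cells, which mix the clusters in different proportions, 6 of 13 were higher, where 2.22% of all genes were, and 0 lower. Spp1 had 6.44 in IRI and 1.88 in control cells. Cd24a, a surface protein of progenitor and injured cells, had 1.76 and 0.555, and Tmsb10, an actin-binding peptide, had 0.873 and 0.0975. The difference in Spp1 was not limited to distal cells. In cells with Slc12a3 outside the TAL, DCT/CNT, CD-IC and tDL names, it had 9.04 (26 IRI cells) and 0.139 (79 control cells). No level of the injury genes in immune cells is given here, so free RNA was not set apart. Hsd11b2, the enzyme that shields the aldosterone receptor from cortisol-like steroids, had 1.03 and 0.343 in cluster 15. Mecom, a transcription factor, had 0.714 and 0.280 over DCT/CNT cells. Of the transcription factors of the distal nephron, 0 of 19 measured in TAL cells were past 2-fold in either direction. Among all genes there, 1.05% were higher and 2.29% lower, so nothing is read from that count.

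In CD-IC cells, 6 of 13 measured genes of the immediate early and heat shock list were at least 2-fold lower in the IRI library, where 7.07% of all genes were, and 0 higher, with Fos at 0.364 and 1.32, Jun at 0.382 and 1.46 and Egr1 at 0.182 and 0.702. Over all DCT/CNT cells, 5 of 14 were higher, where 2.22% of all genes were, and 1 lower, with Junb at 0.603 and 0.119 and Fos at 0.302 and 0.123. Within the clusters fewer passed. In cluster 24, 2 of 11 were higher and 1 lower, where 1.08% and 22% of all genes were. In cluster 15, 1 of 5 was higher and 1 lower, where 8.08% and 8.58% were. The difference between these cell types was not tested.

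Cells with at least 2 corrected counts of Slc12a3, whatever their deposited name, numbered 60 in the IRI library, 1.16%, and 104 in the control library, 1.58%, a ratio of shares of 0.735 (0.526 to 1.02). Of these, 35 IRI and 71 control cells carried the DCT/CNT name, and 15 in each library the TAL name. Cells with Slc12a3 above 0 numbered 96, 1.86%, in the IRI library and 194, 2.94%, in the control library.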
